A study of Mus musculus with 2 samples.

Results

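Kinesins are motor proteins that use ATP to act on microtubules. Some build the mitotic spindle and separate chromosomes and daughter cells, others carry vesicles, organelles and messenger RNA along axons and dendrites, and a few shorten or stabilise microtubule ends or act in cilia. In the developing cortex, radial glial cells (RGCs) line the ventricle and divide, many of their daughters become intermediate progenitor cells (IPCs) that divide again, and their neurons stop dividing and grow axons. The kinesin genes were taken here as all genes of the deposited tables whose symbol is Kif or Kifc followed by a number and letters. This gave 43 of 32285 genes, of which 41 encode kinesin motors. The remaining members are Kif1bp, which encodes a kinesin-binding protein, and Kif16bos, an RNA antisense to Kif16b with 0 and 3 UMIs in replicates 2 and 4. By known role, 13 members were listed as mitotic, 17 as transport kinesins, 6 as acting on microtubule ends or in signalling, and 5 as motile cilium or other kinesins.

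The data are 2 single-cell RNA sequencing libraries of dissociated dorsal telencephalon from mouse embryos at embryonic day 14.5, both labelled WT, and named replicate 2 and replicate 4. Both library names begin with EomesDot. The labels give 1 genotype and no treatment, so the comparisons are between cell classes and cell cycle states within the libraries, each present in both. The paper names C57BL/6J embryos without saying how the name EomesDot relates to them. It is not stated how many embryos each library holds, and p-values measure only the spread between these libraries. Of 4301 barcodes, 3122 cells were retained, 1199 in replicate 2 and 1923 in replicate 4, with a median of 30810 and 22826 UMIs per cell. A UMI is a tag that marks a captured RNA molecule, and 3 barcode sequences occurred in both libraries.

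Cells were clustered without any kinesin gene and the clusters were called "like" a cell type from marker genes. RGC-like clusters raised 9 or 10 of 10 RGC markers, and IPC-like clusters raised 6 to 8 of 8 IPC markers. One of the IPC-like clusters, with 93 of the 382 cells, raised 6 IPC markers and 8 of 13 excitatory neuron markers, and its 10 leading genes held Unc5d, Neurod1 and Slc17a6, which also lead early excitatory neuron-like clusters, beside the IPC markers Eomes and Mfap4, so its name holds in part. An RGC-like cluster of 100 of the 654 cells raised 9 RGC markers and also 6 IPC markers. Each call named below that ended when one of these clusters was left out, alternatives chosen after the values were seen, is said to be lost without it. The RGC-like class held 242 and 412 cells in replicates 2 and 4, and the IPC-like class 146 and 236. Excitatory neuron-like clusters that still raised at least 3 IPC markers were called early (154 and 291 cells) and the others later (405 and 563 cells). Interneurons arise outside the dissected region, and cells like those of the medial ganglionic eminence (MGE) numbered 54 and 83. The class of other GABAergic cells contained S-like (4 and 20) and G2/M-like (3 and 23) cells among its 22 and 97 cells, so its name as neurons does not hold for all of it. Levels are given as CPM, the UMIs of a gene summed over the cells of a class in a library and scaled to 1000000 UMIs. They are compared between classes for 1 gene, not between genes. Differences are log2 fold changes ± SE with adjusted p-values from edgeR's quasi-likelihood test over all genes, and a member was called at an adjusted p under 0.05.

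Of the 43 members, 41 had a UMI in the retained cells, and Kif2b and Kif12 had none. The filter on low counts left 37 in the test across classes, without Kif2b, Kif12, Kif16bos, Kif19a, Kif28 and Kifc2. It also left 37 in the test across cell cycle states, without Kif2b, Kif12, Kif16bos, Kif9, Kif17 and Kifc2.

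**Figure D1:**
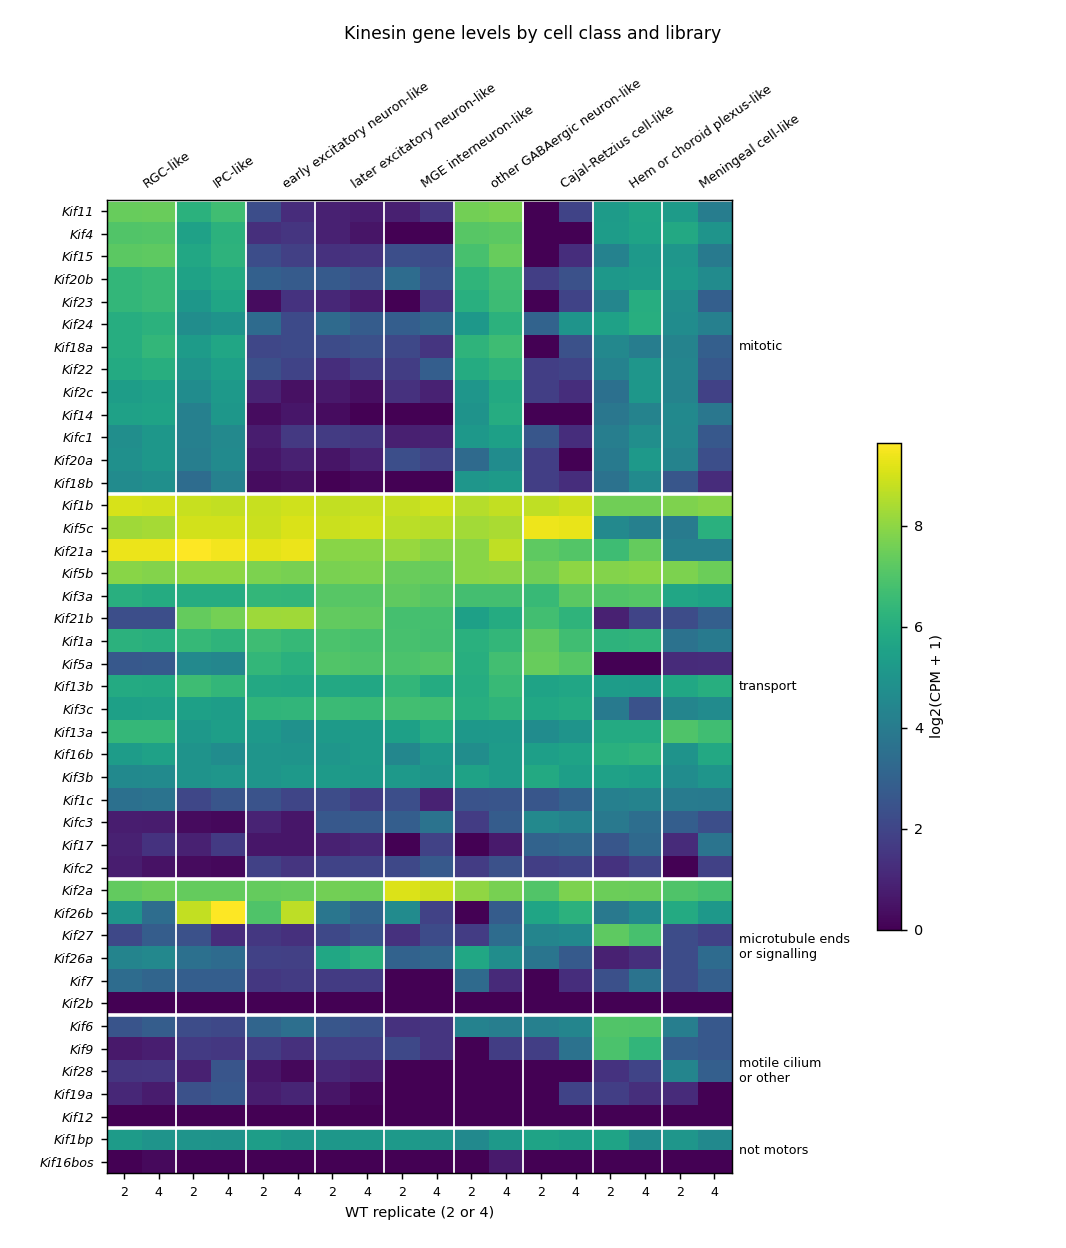
Level of each of the 43 kinesin genes as log2(CPM + 1) (colour) in 9 cell classes, with replicates 2 and 4 side by side in each class and genes grouped by role. The mitotic block is bright in RGC-like, IPC-like and other GABAergic cells and dark in excitatory neuron-like and MGE interneuron-like cells, while most transport kinesins are bright in every neural class.

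The mitotic kinesins were high in progenitors and low in excitatory neuron-like and MGE interneuron-like cells. The 13 members summed to 959 and 1046 CPM in RGC-like cells of replicates 2 and 4, to 428 and 612 CPM in IPC-like cells, and to 27.6 and 23.4 CPM in later excitatory neuron-like cells. They also summed to 897 and 1193 CPM in other GABAergic cells, which include S-like and G2/M-like cells. Hem or choroid plexus-like cells had 302 and 486 CPM. Kif11, the motor that slides spindle microtubules apart to make the spindle bipolar, had 170 and 172 CPM in RGC-like cells, 70.4 and 101 in IPC-like cells and 0.851 and 0.706 in later excitatory neuron-like cells. Both libraries kept this order, and no library of one of these 3 classes overlapped another class. Kif15, which can back up Kif11 on the spindle, had 147 and 152 CPM in RGC-like, 53.4 and 74.6 in IPC-like and 1.57 and 1.73 in later excitatory neuron-like cells. Kif4, a chromokinesin of chromosome arms and the spindle midzone, had 128 and 134, 44.4 and 71.9, and 0.851 and 0.449 CPM in the same classes.

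The other mitotic members ran the same way. Kif23, a subunit of the centralspindlin complex of the midzone, had 81.9 and 90.7 CPM in RGC-like and 1.11 and 0.642 in later excitatory neuron-like cells. Kif20b, which acts in the last cut between daughter cells, had 82.1 and 89.3 against 5.70 and 4.30 CPM. Kif18a, which dampens chromosome movements at the metaphase plate, had 63.8 and 83.4 against 3.60 and 4.11 CPM. No neuronal expression is read from such low levels, since the level of free RNA was not measured. Kif22, a chromokinesin, had 58.0 and 65.4 against 1.38 and 2.25 CPM, and Kif24, a centriolar kinesin that restrains cilium assembly, had 63.8 and 72.6 against 9.10 and 5.97 CPM. The printed values did not overlap between the groups for any of these members. How many of all genes separate in this way was not counted, so this is not read as support.

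All 13 mitotic members were called higher in RGC-like than in later excitatory neuron-like cells, where 25.0% of all 13485 genes tested were called higher and 29.7% lower. Their log2 fold changes had a median of 6.19, against -0.08 over all genes, and ran from 2.89 ± 0.36 for Kif24 (adjusted p = 8.14e-06) to 7.93 ± 0.58 for Kif14, a cytokinesis kinesin (adjusted p = 2.02e-07). Against early excitatory neuron-like cells, all 13 were also higher in IPC-like cells, where 8.94% of all genes were called higher and 9.87% lower, with Kif11 higher by 4.96 ± 0.37 (adjusted p = 2.97e-06). With the G1-like IPC-like cells alone, an alternative chosen after the values were seen, 0 of 13 mitotic members were called against early neurons by edgeR (0 at an unadjusted p under 0.05), where 5.67% of all genes were called higher and 6.26% lower, with a median log2 fold change of -0.04 in place of 4.64. At a coarser clustering the IPC-like class held 4 G2/M-like cells instead of 73, and under scaling of the genes per library 8, and the members called in the comparison, mitotic or not, then numbered 8 and 5 instead of 20. No mitotic member was called between later and early excitatory neuron-like cells (13 tested, 2 at an unadjusted p under 0.05, and 1 called by DESeq2's Wald test), where 13.3% of all genes were called higher and 9.15% lower.

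The share of cells with a Kif11 UMI gave the same picture cell by cell. It was 55.8% (95% exact binomial interval 49.3 to 62.1) and 55.3% (50.4 to 60.2) of RGC-like cells in replicates 2 and 4, and 2.22% (1.02 to 4.18) and 1.95% (0.977 to 3.47) of later excitatory neuron-like cells. After each cell was thinned to 5000 UMIs the shares were 37.9% and 34.4% against 0.746% and 0.182%. Shallower cells were left out, which kept 232 and 389 RGC-like, 145 and 230 IPC-like, 402 and 549 later excitatory neuron-like and 53 and 75 MGE interneuron-like cells. These intervals cover counting error only. RGC-like cells had a median of 32506 and 25850 UMIs against 36640 and 26743 for later excitatory neuron-like cells. Postmitotic MGE interneuron-like cells had a like share of 1.85% and 2.41%, and no neuronal expression of Kif11 is read from these.

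Progenitors were divided into G1-like, S-like and G2/M-like cells by scores of 43 S and 43 G2/M genes, with no kinesin or spindle gene in either list. The scores come from the same cells, and 389 of 1036 progenitor cells lay within 0.05 score units of a cut, so these states are ranges. The mitotic kinesins rose from G1-like over S-like to G2/M-like progenitors, and Kif24 was the exception between the last 2 states. The 13 members summed to 49.5 and 53.4 CPM in G1-like, 674 and 508 in S-like and 1567 and 1736 in G2/M-like RGC-like cells. In IPC-like cells the sums were 40.8 and 35.4, 417 and 700, and 2238 and 2144 CPM. G1-like progenitors of both classes therefore lay nearer to the neuronal sum than to the other states, and the states did not overlap within either class.

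Kif11 had 2.71 and 3.56 CPM in G1-like, 119 and 76.7 in S-like and 281 and 292 in G2/M-like RGC-like cells. Kif2c, a depolymerase that corrects wrong chromosome attachments, had no UMI in G1-like RGC-like cells and 13.5 and 9.35 CPM in S-like and 80.7 and 85.1 CPM in G2/M-like RGC-like cells. Kif24 had 15.6 and 17.1 CPM in G1-like, 83.4 and 80.8 in S-like and 66.1 and 80.9 in G2/M-like RGC-like cells. Its libraries thus overlapped between S-like and G2/M-like RGC-like cells, while in IPC-like cells it had 49.5 and 58.6 CPM in S-like and 60.0 and 67.3 in G2/M-like cells without overlap. All 13 members were called higher in G2/M-like than in G1-like progenitors of both classes (all genes, 13.5% higher and 12.4% lower) and in S-like than in G1-like progenitors (all genes, 13.8% higher and 11.1% lower). Kif2c, Kif4, Kif14, Kif18b, Kif20a, Kif23 and Kifc1 had at most 2.85 CPM in every G1-like and later neuron sum. They passed the filter on low counts only through S-like and G2/M-like sums, so their calls here are not read as support.

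Between G2/M-like and S-like progenitors 12 of the 13 were called higher, where 7.34% of all genes were called higher and 7.56% lower. The order of the differences separated the members. Kif20a, which carries the chromosomal passenger complex to the midzone, was higher by 3.0 ± 0.23 (adjusted p = 3.16e-06), Kif2c by 2.96 ± 0.18 (adjusted p = 1.28e-06), Kif23 by 2.56 ± 0.25 (adjusted p = 2.2e-05) and Kifc1, a motor that gathers spindle poles, by 2.52 ± 0.18 (adjusted p = 1.95e-06). Kif11 (1.76 ± 0.14), Kif4 (1.45 ± 0.15) and Kif15 (1.09 ± 0.12, adjusted p = 7.13e-05) stood lower in this order. Kif24 differed by 0.05 ± 0.15 (adjusted p = 0.866). Differences between members were not themselves tested. Kifc1 has a near copy, Kifc5b, which the symbol rule does not take and which had 206 and 408 UMIs against 420 and 684 for Kifc1, so the count of either is uncertain.

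**Figure D2:**
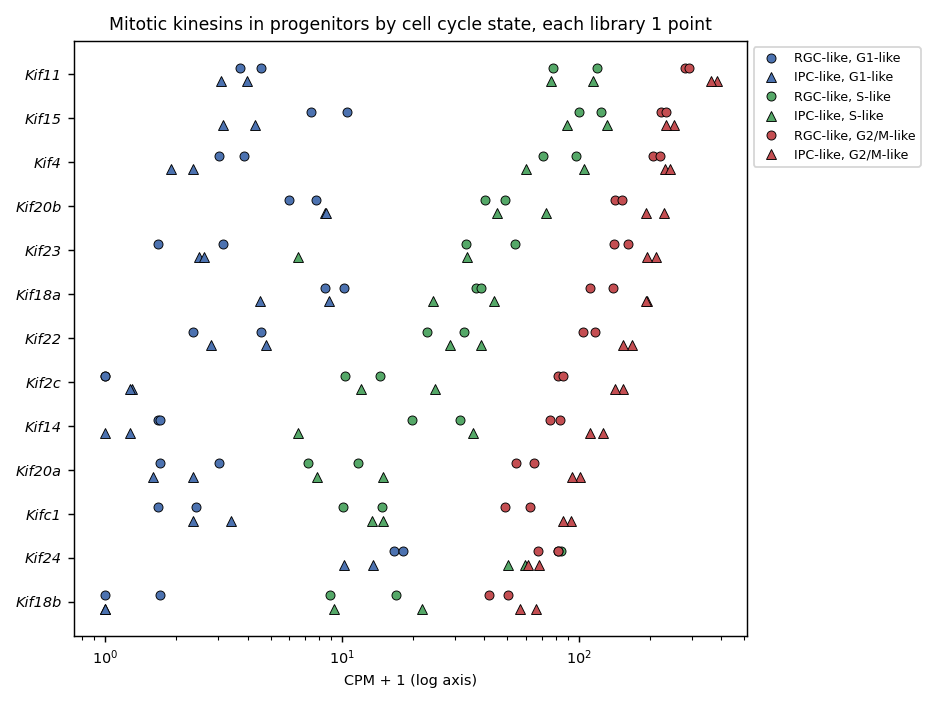
Level of the 13 mitotic kinesins (CPM + 1, log axis) in G1-like, S-like and G2/M-like cells (colours) of the RGC-like (circles) and IPC-like (triangles) classes, each library as 1 point. For all genes but Kif24 the G2/M-like points lie to the right of the S-like points, and in G2/M-like cells most triangles lie to the right of the circles.

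Of the 13 mitotic kinesins, 5 were higher in RGC-like than in IPC-like cells over all cells and 6 were lower within G2/M-like cells. Over all cells, 8 members were called higher and 6 lower in RGC-like cells, where 15.8% of all genes were called higher and 14.0% lower. The 5 mitotic members among those higher were Kif24 (1.24 ± 0.34), Kif15 (1.17 ± 0.26), Kif4 (1.12 ± 0.24), Kif11 (0.94 ± 0.26) and Kif20b (0.65 ± 0.19), and none was lower. With the library as a replicate block 9 of the 13 were called, the added ones being Kif23 (adjusted p = 0.0241), Kif18a (0.0254), Kif18b (0.0273) and Kif22 (0.0304). Over all members the block raised the calls from 14 to 19. The share of all genes called with the block is not given here. A general rise in calls can thus not be told from one in the mitotic members. Without the IPC-like cluster that also raised neuron markers, 0 of 13 mitotic members were called by edgeR (3 at an unadjusted p under 0.05), with adjusted p of 0.0569 for Kif15, 0.0612 for Kif24, 0.0715 for Kif4, 0.194 for Kif11 and 0.434 for Kif20b, and the members called fell from 14 to 6. In that fit 13.6% of all genes were called higher and 11.1% lower. Without the RGC-like cluster that also raised IPC markers, 10 of the 13 were called higher and 0 lower (all genes, 16.7% higher and 14.7% lower). The classes were not made of the same states. G2/M-like cells were 41.3% and 44.4% of RGC-like and 14.4% and 22.0% of IPC-like cells, and S-like cells 38.0% and 38.8% against 15.1% and 15.7%.

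The comparisons within G2/M-like, S-like and G1-like cells were added after these values were seen. Within G2/M-like cells no mitotic member was called higher in RGC-like cells and 6 of 13 were called lower by edgeR (all genes, 12.6% higher and 12.7% lower). DESeq2's Wald test called 5 of the 13. Kif2c had 80.7 and 85.1 CPM in RGC-like against 153 and 141 in IPC-like G2/M-like cells (-0.91 ± 0.20, adjusted p = 0.00611). Kifc1 had 47.7 and 61.4 against 92.1 and 85.2 CPM (-0.78 ± 0.20, adjusted p = 0.0134), and Kif20a had 53.4 and 63.7 against 100 and 92.7 CPM (-0.80 ± 0.24, adjusted p = 0.0291). Kif18a (-0.71 ± 0.21), Kif20b (-0.59 ± 0.17) and Kif22 (-0.63 ± 0.21) were the other members called. The same 6 were called without the IPC-like cluster that also raised neuron markers (all genes, 14.2% higher and 12.6% lower). Without the RGC-like cluster that also raised IPC markers 4 of them were called, and the calls of Kif18a and Kif22 were lost (of all 13429 genes, 1688 were called higher and 1611 lower). Kif11 had 281 and 292 against 382 and 361 CPM and was not called (-0.46 ± 0.18, adjusted p = 0.0834). The IPC-like values rest on 21 and 52 cells, against 100 and 183 RGC-like cells.

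Within S-like cells no mitotic member was called between the classes by edgeR (3 of 13 at an unadjusted p under 0.05, and 0 by DESeq2), where 8.67% of all genes were called higher and 8.76% lower. Within G1-like cells Kif15 alone was called, at 9.49 and 6.41 CPM in RGC-like against 3.30 and 2.16 in IPC-like cells (1.5 ± 0.43, adjusted p = 0.0252), where 11.9% of all genes were called higher and 10.0% lower. This call was lost with the library as a replicate block (adjusted p = 0.0539) and without the cluster that also raised neuron markers. The G2/M-like over S-like difference itself was not called to differ between the classes for any of 37 members by edgeR (12 at an unadjusted p under 0.05, and 2 called by DESeq2), where 0.254% of all genes were called higher and 0.515% lower.

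**Figure D3:**
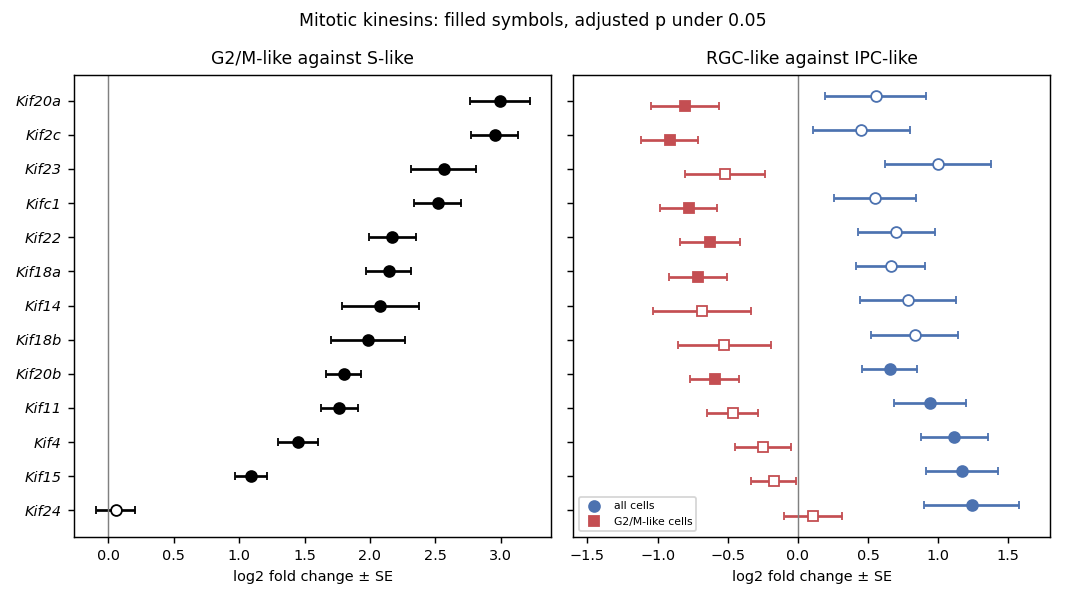
Log2 fold changes ± SE of the 13 mitotic kinesins between G2/M-like and S-like progenitors (left) and between RGC-like and IPC-like cells (right, all cells in blue and G2/M-like cells in red), with filled symbols for adjusted p under 0.05. Kif24 sits at 0.05 on the left, and on the right the blue points lie above 0 and all red points but that of Kif24 (0.11) below 0.

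The genes that rose together in cycling cells were also looked at in their promoters. Many genes of late cell cycle phases carry a cell cycle genes homology region (CHR), a short element near the start that is bound by the DREAM complex, often some distance after a CCAAT box. Its letters TTTGAA were searched on both strands in RefSeq windows from 250 bases before to 50 bases after annotated gene starts (GRCm38.p6), and 33 of the 43 members had a window. No window was found for Kif20a among the mitotic members, nor for Kif5a, Kif5b, Kif13b, Kif21b, Kifc2 and Kifc3 among the transport kinesins, nor for Kif19a, Kif28 and Kif1bp. The letters were present in a window of 10 of 12 mitotic members, of 1 of 11 transport kinesins and of 5466 of all 27025 genes with windows. Over windows the share was 17.9% of all 32851. Kif18a and Kif24 were the mitotic members without them. Within 50 bases before to 25 after the start, 8 of 12 mitotic members and 3.87% of all windows held them. CCAAT, which does not overlap TTTGAA, was present in 8 of 12 mitotic members, in 3 of 11 transport kinesins and in 11096 of all 27025 genes (37.4% of all windows). A match of letters is not evidence of binding.

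Windows from 80 bases before the start to the 30th base of the gene are shown 5′ to 3′ on the gene's strand for mitotic members with the letters just before the start (Kif11, Kif15, Kif22) or just after it (Kif23, Kifc1), and for Kif5c as a transport kinesin without them, with TTTGAA or its reverse complement TTCAAA in capitals.
Kif11, chr19:37376302-37376411, plus strand: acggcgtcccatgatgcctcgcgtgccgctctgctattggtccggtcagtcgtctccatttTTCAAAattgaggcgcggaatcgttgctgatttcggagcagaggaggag
Kif15, chr9:122951001-122951110, plus strand: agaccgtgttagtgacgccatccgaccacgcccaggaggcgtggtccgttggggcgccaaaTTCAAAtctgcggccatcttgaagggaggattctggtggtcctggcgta
Kif22, chr7:127042391-127042500, minus strand: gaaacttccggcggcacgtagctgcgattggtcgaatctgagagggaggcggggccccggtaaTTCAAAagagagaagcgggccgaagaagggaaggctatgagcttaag
Kif23, chr9:61946770-61946879, minus strand: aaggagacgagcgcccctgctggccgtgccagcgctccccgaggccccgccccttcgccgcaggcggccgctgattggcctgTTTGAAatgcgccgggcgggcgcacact
Kifc1, chr17:33890604-33890713, minus strand: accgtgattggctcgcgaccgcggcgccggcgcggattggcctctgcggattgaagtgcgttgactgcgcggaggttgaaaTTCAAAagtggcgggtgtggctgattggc
Kif5c, chr2:49619206-49619315, plus strand: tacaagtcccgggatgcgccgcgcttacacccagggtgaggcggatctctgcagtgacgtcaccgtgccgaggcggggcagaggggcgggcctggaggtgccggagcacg
The first capital lies 19 bases before the start in Kif11 and in Kif15 and 17 bases before it in Kif22, and at base 3 of Kif23 and base 2 of Kifc1. The windows shown are examples. Kif18b (base 4), Kif20b (bases 8 and 14) and Kif4 (base 20) also hold the letters after the start and are not shown.

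**Figure D4:**
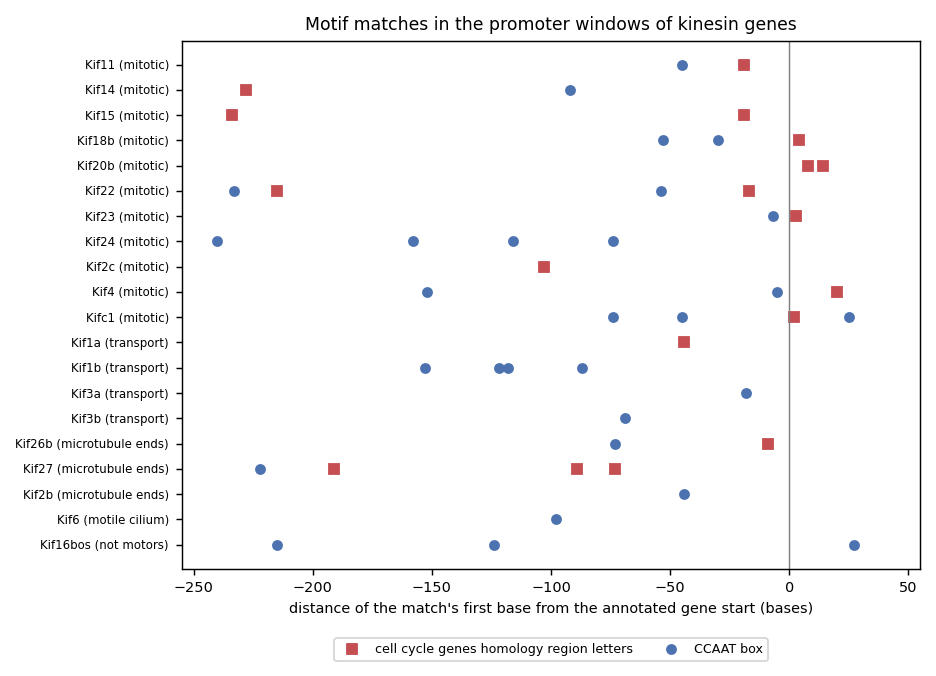
Distance (bases) from the annotated gene start to the first base of each match to the CHR letters (squares) and to CCAAT (circles) in the promoter windows of the kinesin genes with a match, labelled by role. The squares of 8 mitotic genes gather between 50 bases before and 25 after the start, and the transport genes hold 1 square.

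The summed level of the transport kinesins changed little between progenitors and neurons. The 17 members summed to 2158 and 2126 CPM in RGC-like, 2568 and 2476 in IPC-like, 2547 and 2669 in early and 2178 and 2182 in later excitatory neuron-like cells, against 1003 and 1088 in hem or choroid plexus-like and 808 and 876 in meningeal cell-like cells. Single members moved in both directions beneath this sum. Of 16 tested, 8 were called lower and 3 higher in RGC-like than in later excitatory neuron-like cells, where 29.7% of all genes were called lower and 25.0% higher. The 16 had a median log2 fold change of -0.55, against -0.08 over all genes.

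The kinesin-1 heavy chains, the main motors of fast axonal transport, differed from each other. Kif5a had 5.27 and 5.71 CPM in RGC-like, 22.0 and 20.5 in IPC-like, 83.6 and 68.9 in early and 131 and 124 in later excitatory neuron-like cells. It was called lower in RGC-like than in IPC-like cells (-1.99 ± 0.21, adjusted p = 1.27e-05), lower in IPC-like than in early neurons (-2.01 ± 0.19, adjusted p = 1.85e-05), and higher in later than in early neurons (0.81 ± 0.17, adjusted p = 0.00374). Its level thus rose at each step in both libraries. Kif5c had 309 and 326, 507 and 503, 463 and 550, and 472 and 487 CPM in the same 4 classes, and was called only between RGC-like and later excitatory neuron-like cells among these class comparisons over all cells (-0.88 ± 0.31, adjusted p = 0.0271). Between RGC-like and IPC-like cells Kif5c was called lower within G1-like (-0.47 ± 0.12, adjusted p = 0.016), S-like (-0.61 ± 0.13, adjusted p = 0.00482) and G2/M-like cells (-0.66 ± 0.12, adjusted p = 0.00189), the first of these being lost without the RGC-like cluster that also raised IPC markers. Kif5b, the chain found in most cell types, had 242 and 231, 258 and 254, 215 and 203, and 208 and 210 CPM. RGC-like and later excitatory neuron-like cells differed by -0.11 ± 0.15 for Kif5b, which was not called (adjusted p = 0.55). Its CPM were higher in RGC-like cells in both libraries, so the sign depends on edgeR's TMM factors, which rescale the classes. With DESeq2's size factors the median over all genes in this comparison moved from -0.08 to 0.04.

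Kif21b, a kinesin-4 that restrains microtubule growth in neurons, had the lowest adjusted p among the members between RGC-like and IPC-like cells. It had 3.95 and 3.96 CPM in RGC-like, 162 and 198 in IPC-like, 295 and 306 in early and 161 and 156 in later excitatory neuron-like cells. It was lower in RGC-like than in IPC-like cells by a log2 difference of -5.55 ± 0.21 (adjusted p = 3.24e-09), and this was seen within G1-like (-4.73 ± 0.33), S-like (-4.37 ± 0.38) and G2/M-like cells (-6.06 ± 0.33). The share of cells with a Kif21b UMI was 8.68% and 7.77% for RGC-like but 79.5% and 82.2% for IPC-like cells, and after thinning in 2.16% and 2.57% against 47.6% and 51.3%. Early neurons lay above both IPC-like cells (IPC-like minus early, -0.91 ± 0.16, adjusted p = 0.00129) and later neurons (later minus early, -0.86 ± 0.16, adjusted p = 0.00145).

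Its paralog Kif21a had a different course. It had 662 and 660 CPM in RGC-like, 781 and 704 in IPC-like and 608 and 652 in early excitatory neuron-like cells, and 244 and 240 CPM in later ones. Neither step through the first 3 classes was called over all cells. Within S-like cells it was called lower in RGC-like than in IPC-like cells (-0.33 ± 0.10, adjusted p = 0.0395). The values dropped in the last class, with later minus early at -1.32 ± 0.24 (adjusted p = 0.00114) and RGC-like minus later at 1.16 ± 0.24 (adjusted p = 0.000821). MGE interneuron-like cells had 286 and 236 CPM of Kif21a, near the later excitatory level.

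Kinesin-2 motors carry cargo in axons and within cilia, and 3 of their subunits were higher in later excitatory neuron-like than in RGC-like cells. Kif3a had 66.8 and 60.4 CPM in RGC-like and 140 and 141 in later excitatory neuron-like cells (RGC-like minus later, -1.43 ± 0.16, adjusted p = 2.43e-06). Kif3c, a subunit enriched in neurons, had 43.3 and 45 against 94.4 and 90.2 CPM (-1.35 ± 0.18, adjusted p = 1.58e-05), and Kif3b had 22.7 and 23.7 against 37.3 and 35.5 CPM (-0.94 ± 0.14, adjusted p = 7.06e-05). The printed values of these subunits did not overlap between the groups, and the share of all genes for which this holds was not counted. Kif17, another kinesin-2, was at most 2.15 CPM in these classes and the IPC-like class and was not called. Outside these classes, hem or choroid plexus-like cells had 129 and 137 CPM of Kif3a and 44.5 and 41.0 of Kif3b. Their Kif3c was low, at 14.8 and 4.39 CPM.

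Kif1a, which carries synaptic vesicle precursors, had 71.9 and 67.5 CPM in RGC-like and 118 and 113 in later excitatory neuron-like cells (-1.02 ± 0.15, adjusted p = 4.47e-05). Kif1b, which carries mitochondria and vesicle precursors, had 536 and 503 against 433 and 443 CPM and was not called between these classes (-0.04 ± 0.15). Its CPM were higher in RGC-like cells in both libraries, whereas the fit, with the TMM factors, placed the difference near 0. Kif1c, Kif13a and Kif21a were the transport kinesins called higher in RGC-like than in later excitatory neuron-like cells. Kif13a, which moves recycling endosomes, had 84.3 and 83.9 CPM in RGC-like against 34.6 and 41.2 in IPC-like and 37.5 and 38.5 in later excitatory neuron-like cells. Kif1c had 10.8 and 11.9 against 3.14 and 4.8 and 3.73 and 2.37 CPM. Both were also higher in RGC-like than in IPC-like cells, Kif13a by 1.09 ± 0.17 (adjusted p = 0.000218) and Kif1c by 1.44 ± 0.33 (adjusted p = 0.00435).

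Within G2/M-like cells the Kif13a levels were 87.5 and 82.3 CPM for RGC-like but 19.5 and 15 CPM for IPC-like cells (2.25 ± 0.26, adjusted p = 4.61e-05). Kif13b, its paralog, had 58.0 and 56.9 CPM in RGC-like, 98.0 and 82.5 in IPC-like, 56.1 and 53.7 in early and 56.2 and 53.7 in later excitatory neuron-like cells. It was higher in IPC-like cells than in either neighbouring class (RGC-like minus IPC-like, -0.70 ± 0.17, adjusted p = 0.00594, and IPC-like minus early, 0.54 ± 0.17, adjusted p = 0.0395). Kif13b was the transport kinesin called higher in IPC-like than in early excitatory neuron-like cells, and Kif5a, Kif3c, Kif21b and Kif3a were those called lower. The block added Kif16b, an endosome motor, to the members called between RGC-like and IPC-like cells (0.57 ± 0.23, adjusted p = 0.0711 without and 0.0346 with the library as a replicate block).

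The minus-end directed Kifc3 was low throughout, at 0.718 and 0.645 CPM in RGC-like and 5.37 and 5.71 in later excitatory neuron-like cells (-3.26 ± 0.41, adjusted p = 9.49e-06), and highest in Cajal-Retzius cell-like cells at 22.4 and 18.4 CPM. Kifc2 stayed at or under 5.39 CPM in all 9 classes.

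**Figure D5:**
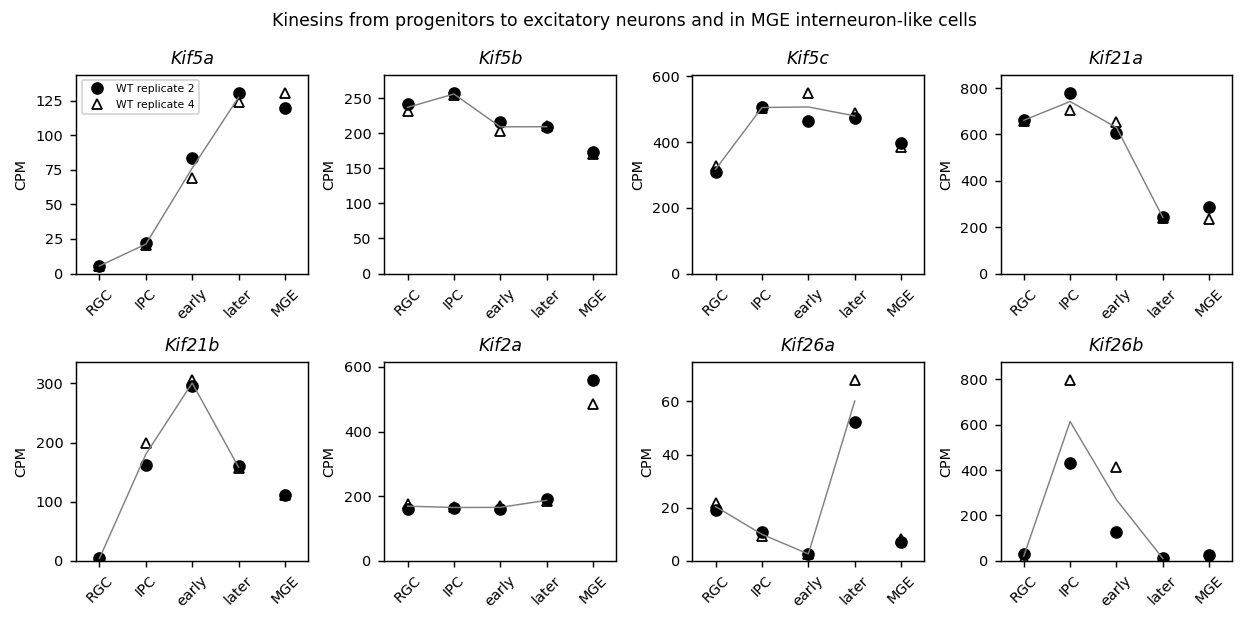
Level (CPM, linear axis from 0) of 8 kinesin genes in RGC-like, IPC-like, early and later excitatory neuron-like and MGE interneuron-like cells, with replicate 2 as filled circles, replicate 4 as open triangles and a line through the means of the first 4 classes. Kif5a climbs to 131 and 124 CPM, Kif21b peaks in early neurons, Kif21a falls in later neurons, Kif2a is highest in MGE interneuron-like cells, and the libraries separate for Kif26b.

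Within progenitors some transport kinesins were lower in S-like cells. Of 15 tested, 7 were called lower and none higher in S-like than in G1-like cells (all genes, 11.1% lower and 13.8% higher), among them Kif5a (-1.59 ± 0.25, adjusted p = 0.000457) and Kif21b (-1.38 ± 0.31, adjusted p = 0.00592). Kif5a had 24.9 and 27.0 CPM in G1-like, 6.88 and 2.98 in S-like and 23.7 and 15.7 in G2/M-like IPC-like cells. It was therefore lowest in S-like cells in both libraries and was higher again in G2/M-like cells (1.38 ± 0.23, adjusted p = 0.00182). Between S-like and G1-like cells the call of Kif5a was lost without the IPC-like cluster that also raised neuron markers (-0.64). That of Kif21b was lost without the RGC-like cluster that also raised IPC markers (-0.88), and its difference was 0.00084 with genes scaled within each library. Between G2/M-like and S-like cells Kif5a was the transport kinesin called higher and 1 was called lower (all genes, 7.34% higher and 7.56% lower), and the 15 had a median of 0.08. Kif21a joined the members called lower in S-like cells with the library as a replicate block (adjusted p = 0.0865 without and 0.0426 with it), and Kif3c those called higher in G2/M-like than in G1-like cells (0.0543 and 0.045).

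G1-like IPC-like cells were set beside later excitatory neuron-like cells to compare classes with little cell cycle signal, where 17.9% of all genes were called higher and 23.6% lower. Of 15 transport kinesins tested, 5 were called lower in the IPC-like cells. They include Kifc3, which passed the filter on low counts of this fit only through the later neuron sums and is not read here. The others were Kif1a, Kif3a, Kif3c and Kif5a, with Kif5a at 24.9 and 27.0 against 131 and 124 CPM (-2.50 ± 0.15, adjusted p = 1.23e-07), and Kif21a (1.42 ± 0.10) and Kif13b (0.57 ± 0.12) were called higher. Kif11 was the mitotic member called, at 2.10 and 2.97 against 0.851 and 0.706 CPM (1.48 ± 0.51, adjusted p = 0.0339), and it was lost with the library as a replicate block (adjusted p = 0.0751) and without the cluster that also raised neuron markers. With G1-like RGC-like cells in place of all RGC-like cells, 8 transport kinesins were called lower and 3 higher against later excitatory neuron-like cells, as over all cells, Kifc3 among the lower ones with the same limit, but 3 instead of 13 mitotic kinesins were called (all genes, 22.4% higher and 25.3% lower), a comparison also added after the values were seen. These were Kif15 (1.99 ± 0.39), Kif11 (1.71 ± 0.66, adjusted p = 0.0491 and 0.108 with the block) and Kif24 (0.86 ± 0.27), whose call was lost without the RGC-like cluster that also raised IPC markers.

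Among the members that act on microtubule ends or in signalling, Kif26a and Kif26b, which bind microtubules without ATP-driven movement, ran opposite ways between early and later neurons. Kif26a had 19.1 and 21.7 CPM in RGC-like, 10.7 and 9.26 in IPC-like, 2.65 and 2.51 in early and 52.2 and 68.1 in later excitatory neuron-like cells. It was lowest in early neurons and higher in later ones by 4.59 ± 0.31 (adjusted p = 5.16e-07). Kif26b had 30.6 and 9.86, 431 and 798, 127 and 412, and 12.8 and 7.63 CPM in the same classes. It was highest in IPC-like cells in both libraries and lower in later than in early neurons (-4.68 ± 0.67, adjusted p = 0.000207), but its level in early neurons of replicate 4 was near the IPC-like level of replicate 2. The libraries differed more for Kif26b than for its paralog, and the cause was not tested.

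Kif26b was higher in IPC-like than in RGC-like cells (RGC-like minus IPC-like, -5.00 ± 0.68, adjusted p = 8.7e-05). A UMI of it was found in 74.7% and 75.0% of IPC-like cells and in 15.3% and 10.9% of RGC-like cells, and after thinning in 57.2% and 63.5% against 7.76% and 4.11%. So the share of IPC-like cells with Kif26b was alike in both libraries, while the CPM were not. IPC-like cells did not pass the test against early excitatory neuron-like cells for Kif26b (0.99 ± 0.57).

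Kif2a, a depolymerase that prunes axon branches, was steady along the excitatory classes, from 161 to 190 CPM over both libraries. In MGE interneuron-like cells it had 560 and 485 CPM, above every library of the other classes, and it was higher than in later excitatory neuron-like cells by 1.35 ± 0.19 (adjusted p = 0.000134). A UMI of Kif2a was found in 79.2% and 90.7% of MGE interneuron-like cells after thinning to 5000 UMIs, against 57.5% and 61.7% of later excitatory neuron-like cells. In progenitors Kif2a was higher in S-like (0.53 ± 0.08) and in G2/M-like (0.46 ± 0.08) than in G1-like cells, the member of its list called in both.

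Kif2a was the only member called higher in that comparison and 3 were called lower, where 6.76% of all genes were called higher and 14.2% lower. With DESeq2's size factors 1196 genes were called higher and 1464 lower in place of 911 and 1913, and the median over all genes moved from -0.13 to -0.00898. Kif26a had 7.23 and 8.09 CPM in MGE interneuron-like cells (-3.10 ± 0.34, adjusted p = 1.73e-05), and Kif21b had 112 and 111 CPM (-0.64 ± 0.17, adjusted p = 0.0163). Kif7, the ciliary kinesin that acts in Hedgehog signalling, had no UMI in MGE interneuron-like cells and 2.23 and 2.18 CPM in later excitatory neuron-like cells. Taking 3 counts over the group as the floor, it was at least 1.73-fold lower, and its call (adjusted p = 0.049) was lost with the library as a replicate block (adjusted p = 0.0582). No mitotic member was called between these neurons by edgeR (13 tested, 1 at an unadjusted p under 0.05, and 1 called by DESeq2). In 4 alternatives the number of members called was 2. In RGC-like cells Kif7 had 9.57 and 7.83 CPM (RGC-like minus later excitatory neuron-like, 1.68 ± 0.43, adjusted p = 0.0045).

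Kif6, Kif9 and Kif27, kinesins of motile cilia, were highest in the hem or choroid plexus-like class, whose 34 and 20 cells include an epithelium that bears motile cilia. Kif6 had 130 and 124 CPM there and at most 19.8 CPM in any library of the other 8 classes. Kif9, a kinesin of the ciliary central pair, had 120 and 80.4 CPM there and at most 11.3 CPM elsewhere. Kif27, listed with signalling and also needed for motile cilia, had 151 and 113 CPM there and at most 22.7 CPM elsewhere. These 3 members were thus separate from all other classes in both libraries, a comparison for which no test was planned. The other members of the motile cilium or other list did not share this. Kif19a had 2.47 and 1.46 CPM there against 4.19 and 5.29 in IPC-like cells, Kif28 had 1.65 and 2.93 CPM there against 20.1 and 6.65 in meningeal cell-like cells, and Kif12 had no UMI. The same class was the lowest of the 9 in Kif1b and had no UMI of Kif5a.

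Among the classes tested, Kif6 was higher in early than in later excitatory neuron-like cells at 7.95 and 10.5 against 4.98 and 4.11 CPM (later minus early, -0.98 ± 0.26, adjusted p = 0.0135). Kif9 was lower in RGC-like than in later excitatory neuron-like cells at 0.598 and 0.737 against 2.42 and 2.44 CPM (-2.08 ± 0.44, adjusted p = 0.00101). Kif19a, which shortens ciliary microtubules, had 16 and 25 UMIs in G1-like IPC-like cells and none in G2/M-like IPC-like cells. Taking 3 counts over the group as the floor, it was at least 3.96-fold lower in the latter. RGC-like cells had 3.39 and 2.14 CPM in G1-like and 0.542 and 0.379 in G2/M-like cells, on 2 UMIs in each G2/M-like sum, and the call over both classes had an adjusted p of 0.00258. Kif19a passed the filter on low counts only through G1-like sums and S-like IPC-like sums, where it was high. Neither this fold nor its calls are therefore read as a difference. Its call between G2/M-like and S-like cells (adjusted p = 0.0462) was lost with the library as a replicate block (adjusted p = 0.0623) and without either of the clusters with mixed markers. Kif28 had 0 and 2 UMIs in G1-like and 10 and 3 in S-like RGC-like cells, and 1 and 0 in G1-like and 2 and 28 in S-like IPC-like cells. It passed the filter on low counts only through S-like sums and most of its S-like UMIs came from replicate 4, so no difference is read from its call there. Kif1bp had 30.1 to 40.7 CPM in the excitatory neuron-like, IPC-like and RGC-like classes and was called in none of the comparisons.

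The partners of kinesins were read from lists of other genes. Of 12 spindle partners, 11 were called higher in RGC-like than in later excitatory neuron-like cells and 0 lower (all genes, 25.0% higher and 29.7% lower), led by Aurkb (7.33 ± 0.54), a kinase of the chromosomal passenger complex, Plk1 (6.46 ± 0.56), a mitotic kinase, and Birc5 (6.45 ± 0.50), a passenger subunit. Numa1, a spindle pole protein, was the partner not called (0.11 ± 0.13). Between G2/M-like and S-like progenitors all 12 were called higher (all genes, 7.34%), with a median log2 fold change of 2.27, near the 2.08 of the 13 mitotic kinesins. Within G2/M-like cells 4 of the 12 were called lower in RGC-like than in IPC-like cells and 0 higher (all genes, 12.7% lower and 12.6% higher).

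Of 14 kinesin light chains and cargo adaptors, 10 were called lower in RGC-like than in later excitatory neuron-like cells and 0 higher, beside 29.7% and 25.0% of all genes. Mapk8ip2, a kinesin-1 scaffold (-2.21 ± 0.21), Arl8a, a small GTPase that links kinesins to lysosomes (-2.14 ± 0.15), and Madd, an adaptor of Kif1 motors (-1.96 ± 0.18), had the largest differences, and the kinesin-1 light chain Klc1 was lower by a log2 difference of -1.37 ± 0.18. Of 16 genes of dynein and dynactin, the motor of the opposite direction, 12 were called lower and 1 higher, against the same shares of all genes. The neuronal dynein intermediate chain Dync1i1 had the largest difference (-7.04 ± 0.74), and the member higher in RGC-like cells was Nde1 (4.81 ± 0.22), a dynein regulator of dividing progenitors.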

How the data were processed

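The authors prepared 10x Genomics 3′ v3.1 libraries and made the deposited values, UMI counts per gene and barcode without normalization, with Cell Ranger 7.0.0 on mm10 (per the labels). Whether intronic reads were counted is not given in the sources used here. The libraries hold 40267872 and 49422008 UMIs.

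Cells needed 1000 or more genes and mitochondrial UMIs of 10% or less, and Scrublet removed 12 (0.991%) and 48 (2.44%) doublets (scanpy 1.11.5). Leiden clustering (resolution 1, 2000 variable genes, 30 components, 20 neighbours) left out kinesins, partners, adaptors and dynein genes and gave 24 clusters. A name needed at least 3 fixed markers raised at least 1 log2 unit over the median cluster in at least 25% of cells. After a first clustering was seen, erythroid markers were barred from naming. Cell cycle states came from scanpy scores. UMIs summed per library and class (18 sums) or class and state (14 sums) were tested with edgeR 4.0.16 (TMM, filterByExpr, quasi-likelihood F test, Benjamini-Hochberg over all genes), with SE from the log2 fold change and F, and checked on simulated data. DESeq2 1.42.0 was an alternative, beside other filters, clusterings, scalings, states and fits. Sums of the same library are paired by their cells' shared preparation. The median correlation of library deviations was 0.077 over 36 class pairs and 0.119 over 21 state pairs.

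Members, gene lists and motifs were chosen with earlier results of these data known. Per-library values are given for the 8 members of each role list with the highest mean level, for members called against most of their list, and for up to 3 genes of other lists with the largest called change. Other members with values were chosen after these were seen.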

Additional observations from a re-analysis of the deposited data

Results flagged for a closer look

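A cluster of 36 and 37 cells in replicates 2 and 4 raised 8 of 10 RGC markers and 5 of 7 erythroid markers and stayed unnamed, because its median of 5653 UMIs per cell was far under the 30810 and 22826 of its libraries and no RGC marker was among its leading genes, which include Kif4. It enters no comparison above. Its mitotic kinesins summed to 1738 CPM (454 UMIs) in replicate 2 and 2129 CPM (484 UMIs) in replicate 4, above the limit that a count of 0 allows (11.5 and 13.2 CPM) and above the 959 and 1046 CPM of the RGC-like class. Whether shallow RNA content, the erythroid markers or cell cycle state go with this was not tested.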

How the results depend on the processing

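Each of the 142 called log2 fold changes was recomputed under the tested alternatives. Of 1982 recomputed values, 1772 kept direction and call, 180 kept direction without the call and 30 reversed. Between RGC-like and IPC-like cells the 14 members called became 22 with doublets kept, 22 at Leiden resolution 2, 22 with genes scaled within each library, 9 in G1-like cells alone and 6 without the IPC-like cluster that also raised neuron markers. The reversals there were state-specific, in G1-like cells Kif20b (-0.40), in S-like cells Kif15 (-0.0417), Kif20b (-0.48), Kif11 (-0.0263) and Kif4 (-0.0525), and in G2/M-like cells Kif15 (-0.17), Kif20b (-0.59), Kif11 (-0.46) and Kif4 (-0.25). Between IPC-like and early excitatory neuron-like cells the 20 called became 8 at resolution 0.5, where Kif14 (-0.29), Kif2c (-1.74), Kif23 (-0.17) and Kif18b (-3.88) reversed, and 5 with scaling within libraries, where Kif2c (-0.55), Kif23 (-1.02), Kif15 (-0.0791), Kif18b (-0.50), Kifc1 (-0.15) and Kif4 (-0.12) reversed. The IPC-like class then held 4 and 8 G2/M-like cells. With its G1-like cells alone 6 were called, and Kif14 (-1.42), Kif2c (-1.12), Kif22 (-0.38), Kif15 (-0.32), Kif18b (-3.53), Kif11 (-0.0449) and Kif4 (-0.67) reversed. With G1-like RGC-like cells alone against later excitatory neuron-like cells, Kif2c (-4.18), Kifc1 (-1.21) and Kif20b (-0.0184) reversed. Kif2c had 0 UMIs and Kifc1 1 and 2 UMIs in those G1-like cells, and Kif18b had 0 in G1-like IPC-like cells, so their values carry no direction. Kif21b between S-like and G1-like progenitors reversed with scaling within libraries (0.00084). At 500 genes per barcode 4 instead of 8 members were called between later and early neurons and 2 instead of 4 for MGE interneuron-like cells, as with doublets kept (2), split UMIs (2) and scaling (2). Between S-like and G1-like progenitors 12 instead of 22 were called at resolution 0.5, and DESeq2 called 2 instead of 0 in the interaction. The comparisons within states, those of G1-like cells alone and the removal of single clusters were chosen after seeing the data. Except where stated, the cause was not tested. In the 2 settings with too few G2/M-like IPC-like cells the G2/M comparisons could not be fitted.

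Summed mitotic CPM of RGC-like cells (1002) became 1075 at 500 genes, 1284 at resolution 0.5, 1148 at resolution 2 and 1227 with scaling within libraries, and summed transport CPM (2142) became 2175 at 500 genes, 2168 at resolution 0.5 and 2192 with split UMIs. In later excitatory neuron-like cells summed transport CPM (2180) became 2299 at 500 genes, 2183 at 5% mitochondrial UMIs, 2266 at resolution 0.5, 2195 at resolution 2, 2204 with split UMIs and 2171 with scaling within libraries. With 1 library left out, as log2 CPM differences with no test, no called log2 fold change reversed, but 183 of 284 values moved by more than the spread between the libraries. These differences lack the TMM factors of the fit. The count therefore also holds that change of scale and is not read as dependence on 1 library. The block changed no other call than those named above. With 2 libraries, low members such as Kif7, Kif19a and Kif28 rest on few UMIs.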
